A study of Mus musculus with 10 samples.

Results

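Binding of the mutant CEBPB(V285A) was set against that of wild-type CREB1 on unmethylated DNA, over all 32896 8-mers and over the single probes of protein binding microarrays. These arrays carry short double-stranded DNA probes, to which a tagged protein is bound and then detected by fluorescence, here in the Cy5 channel. The comparison took the 2 CEBPB(V285A) arrays and the 2 CREB1 arrays whose probes are labelled unmethylated, 4 of the 10 arrays of the series. The other 6 arrays hold CREB1(A297V) on unmethylated DNA, CEBPB(V285A) on methylated DNA and CREB1(A297V) on methylated DNA, 2 of each. They entered the estimate of the spread between replicates, and their medians over 1 set of 8-mers are given beside the lower calls. Wild-type CEBPB was not analysed here. Per the labels, both proteins are mouse bZIP DNA-binding domains with a GST tag at the N terminus, made in a cell-free kit, so no full-length protein, cell or chromatin was present. The mutant was made by site-directed mutagenesis of the wild-type CEBPB construct. The labels do not tell whether the replicates used separate preparations of protein. Every p-value below therefore speaks only of how 2 arrays of a kind differ, and that spread may be technical. In the deposited file names the CREB1 arrays share an array identifier with the unmethylated CREB1(A297V) arrays, and the CEBPB(V285A) arrays carry another, so a difference between those identifiers and a difference between the proteins cannot be told apart.

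Proteins of the bZIP family bind DNA as dimers, in which a pair of long helices enters the major groove from both sides and each basic region reads 1 half-site. CREB1 binds the cAMP response element, here called CRE + CRE, in which the half-site TGAC meets its reverse complement. The C/EBP proteins, which act in liver, fat and myeloid cells, are known for C/EBP + C/EBP, built in the same way from TTGC. The PAR bZIP factors such as DBP, TEF and HLF, known from the circadian output of the liver, bind PAR + PAR, built from TTAC. The mutation of CEBPB exchanges a valine for an alanine, while the CREB1 mutant of the same series exchanges an alanine for a valine. The title of the series concerns the likeness of CEBPB(V285A) to CREB1 in sequence preference.

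The probes that held the 3 palindromes in their brightest and dimmest contexts show what was bound. Each variable region of 35 bases is given 5′ to 3′ as deposited, with the linker to the slide at its 3′ end, and the capitals mark the palindrome. The probes were taken by the highest and the lowest mean log2 fold over the 4 arrays.
CRE + CRE, brightest: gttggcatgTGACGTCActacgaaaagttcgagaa
CRE + CRE, dimmest: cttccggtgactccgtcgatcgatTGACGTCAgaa
PAR + PAR, brightest: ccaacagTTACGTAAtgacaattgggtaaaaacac
PAR + PAR, dimmest: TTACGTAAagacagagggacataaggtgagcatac
C/EBP + C/EBP, brightest: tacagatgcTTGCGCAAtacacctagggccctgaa
C/EBP + C/EBP, dimmest: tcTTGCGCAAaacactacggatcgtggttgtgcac

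The brightest CRE + CRE probe gave a signal of 65528, near the top of the scanner's range, on both CREB1 arrays and on the first CEBPB(V285A) array, and 54131 on the second. The brightest C/EBP + C/EBP probe separated the proteins: its signal was 2573 and 4793 on the CREB1 arrays against 36394 and 33553 on the CEBPB(V285A) arrays. Divided by the median of the surrounding spots, that was 2.56-fold and 3.51-fold for CREB1 and 53.0-fold and 41.0-fold for CEBPB(V285A). The brightest PAR + PAR probe lay at 16.8-fold and 21.7-fold for CREB1 and at 74.3-fold and 70.5-fold for CEBPB(V285A). The dimmest PAR + PAR probe, in which the site starts at the free end of the DNA, stayed between 0.76-fold and 0.98-fold on all 4 arrays. The dimmest C/EBP + C/EBP probe likewise lay between 0.92-fold and 1.05-fold. In contrast, the dimmest CRE + CRE probe still reached 5.57-fold and 5.78-fold for CREB1 and 4.08-fold and 6.89-fold for CEBPB(V285A).

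Each 8-mer was pooled with its reverse complement, and its score is the median log2 fold over the 15 to 42 probes that hold it. It was turned into a Z-score within each array by the median and the scaled median absolute deviation of all 8-mers. The scale of the Z-score differed between the proteins. The spread that served as its unit was 0.170 and 0.145 log2 units on the CREB1 arrays and 0.206 and 0.200 on the CEBPB(V285A) arrays, so the same fold gives a lower Z-score for CEBPB(V285A). Folds over the array median are therefore given beside the Z-scores. Median spot signal was 1235 and 1516.5 for CREB1 and 735 and 738 for CEBPB(V285A), and median signal over background was 5.10 and 3.54 against 3.19 and 2.50. Spots not above their background numbered 1037 and 1497 on the CREB1 arrays and 19 and 79 on the CEBPB(V285A) arrays. Across all 8-mers, replicate arrays correlated at 0.935 for CREB1 and 0.969 for CEBPB(V285A), and arrays of different proteins at 0.884 to 0.906. These values describe overlapping 8-mers and carry no test.

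The 6 ways of joining the half-sites CRE, PAR and C/EBP head to head were compared first. At CRE + CRE, TGACGTCA, the Z-score was 29.1 and 32.5 on the CREB1 arrays and 23.3 and 23.1 on the CEBPB(V285A) arrays, with CREB1 above in every array. The fold over the array median was nearly alike, 28.5 for CREB1 and 26.3 for CEBPB(V285A). In limma's test over all 10 arrays, adjusted by Benjamini-Hochberg over all 8-mers, the Z-score difference of -7.58 ± 2.58 (SE) was not called, with an adjusted p = 0.0848. An 8-mer is called here at an adjusted p below 0.05. This difference was negative under each of the 23 alternative settings tried and was called under 7 of them, among them the fit without either unmethylated CREB1(A297V) array. CRE + CRE ranked 1 among all 8-mers for CREB1 and 3 for CEBPB(V285A). Of its 19 probes, 2 and 5 were at the top of the scanner's range on the CREB1 arrays, against 1 and none on the CEBPB(V285A) arrays.

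At PAR + PAR, TTACGTAA, the order was opposite. The Z-score was 14.8 and 15.9 for CREB1 and 25.5 on both CEBPB(V285A) arrays, and the folds were 5.32 and 36.1. The difference of 10.1 ± 2.70 (SE) was called higher (adjusted p = 0.0310, limma). PAR + PAR was the top 8-mer of CEBPB(V285A), while for CREB1 it ranked 24. The call rests on the arrays in the fit. It was lost without either array of the CREB1, CEBPB(V285A) or methylated CEBPB(V285A) groups and without methylated CREB1(A297V) replicate 2, where the difference lay between 9.56 and 10.7 and the adjusted p reached up to 0.195. With no limit on the trend of the variance the adjusted p was 0.669, and after normexp background correction the difference itself was only 0.52.

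The C/EBP palindrome gave the largest difference of all 8-mers. At C/EBP + C/EBP, TTGCGCAA, the Z-score was 2.09 and 2.62 for CREB1, below the value of 3 taken here as bound, and 15.6 and 16.8 for CEBPB(V285A). The folds were 1.29 and 9.73, a ratio of 7.54. The difference of 13.8 ± 1.70 (SE) had an adjusted p = 0.000114 in limma's test and was called under every one of the 23 alternatives, at a difference of 8.65 after normexp. CREB1 thus ranked this palindrome 1435, against rank 16 for CEBPB(V285A).

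Sites that mix half-sites lay between these. CRE + PAR, TGACGTAA, had a Z-score of 19.3 and 23.1 for CREB1 and 24.6 and 24.1 for CEBPB(V285A), with folds of 9.99 and 30.7. Its difference of 3.11 ± 2.79 (SE) was not called (adjusted p = 0.551, limma) and turned to -3.75 after normexp background correction. Of the 24 alternatives, 3 called it higher, among them the authors' matrix. CRE + C/EBP, TGACGCAA, had 9.83 and 14.8 for CREB1 and 17.3 and 16.8 for CEBPB(V285A), with folds of 3.75 and 11.1. That difference, 4.78 ± 2.64 (SE), was not called either (adjusted p = 0.300, limma), and normexp turned it to -1.03. For this site 5 of the 24 alternatives called a higher value, again with the authors' matrix among them. PAR + C/EBP, TTACGCAA, had 5.05 and 6.42 for CREB1 and 18.6 and 16.2 for CEBPB(V285A), with folds of 1.86 and 11.6. Here the difference of 11.6 ± 2.57 (SE) was called higher (adjusted p = 0.0114, limma). Leaving out CREB1 replicate 1 or either CEBPB(V285A) array ended this call, with adjusted p-values of up to 0.157 and differences of at least 10.4. After normexp the difference was 4.62 and not called either.

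Set in order, the CREB1 folds over the 6 sites ran from 28.5 at CRE + CRE down to 1.29 at C/EBP + C/EBP. The CEBPB(V285A) folds spanned only 36.1 at PAR + PAR to 9.73 at C/EBP + C/EBP. For CEBPB(V285A) the arrays of PAR + C/EBP overlapped in Z-score with those of CRE + C/EBP and of C/EBP + C/EBP. The arrays of CRE + C/EBP and C/EBP + C/EBP did not overlap, at 16.84 and above against 16.80 and below, a gap far smaller than the spread between the arrays of either site. The plot of Z-scores per array shows CREB1 above at CRE + CRE and CEBPB(V285A) above at the other 5 sites.

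**Figure D1:**
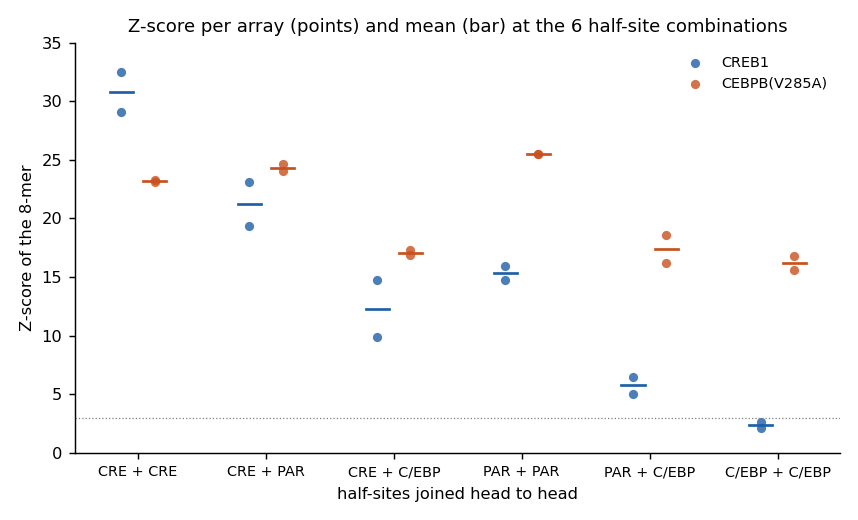
Z-score on the y axis of the 6 half-site combinations named on the x axis, with 1 point per array and a bar at the mean of 2 arrays for CREB1 (blue) and CEBPB(V285A) (orange); the dotted line marks a Z-score of 3. CREB1 lies at 29.1 and 32.5 at CRE + CRE and at 2.09 and 2.62 at C/EBP + C/EBP, while every CEBPB(V285A) point lies at or above 15.6.

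Over the whole set of 8-mers the proteins shared most of their strong sites. With a mean Z-score of at least 3 taken as bound, CREB1 bound 884 8-mers, CEBPB(V285A) bound 1150 and both bound 753. With a mean Z-score of at least 10 the numbers were 68, 100 and 61. No 8-mer with 10 or more for CREB1 fell below 3 for CEBPB(V285A), and the lowest CEBPB(V285A) mean Z-score among them was 8.55. In the other direction, 3 8-mers had 10 or more for CEBPB(V285A) and less than 3 for CREB1. They were TTGCGCAA itself, TTATGCAA (PAR outer bases, then TG, then C/EBP outer bases) and TGATGCAA, the C/EBP-ATF composite site, in which a C/EBP half-site meets part of a CRE half-site.

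The test called 2080 of the 32896 8-mers, 6.32%. Of these, 1223 were higher for CEBPB(V285A), 3.72% of all 8-mers, and 857 were lower, 2.61%. The higher calls had a median Z-score of -0.087 for CREB1 and 1.20 for CEBPB(V285A), and 211 of them were bound by CEBPB(V285A). For the lower calls, the highest CREB1 mean Z-score was 5.42, only 29 were bound by CREB1 and the smallest ratio of folds was 0.667. In base composition the higher calls held 3.29 G or C of 8 bases on average and the lower calls 4.21, against 4 over all 8-mers. At an unadjusted p below 0.05, 7283 8-mers passed. Without CEBPB(V285A) replicate 1 or 2 the calls dropped to 236 and 342, without CREB1 replicate 1 to 1262, and without any 1 of the 4 methylated arrays to between 1320 and 1376. Leaving out unmethylated CREB1(A297V) replicate 1 or 2 raised them to 3608 and 3605. Of the 2080 calls, 58.8% were higher. That share was 72.0% with foreground over background, 79.3% with no spatial correction, 77.2% from the authors' matrix, 72.5% with only the 6 unmethylated arrays, 71.6% without either CEBPB(V285A) array and 31.9% after normexp, which moved the median difference of all 8-mers by -0.112.

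**Figure D2:**
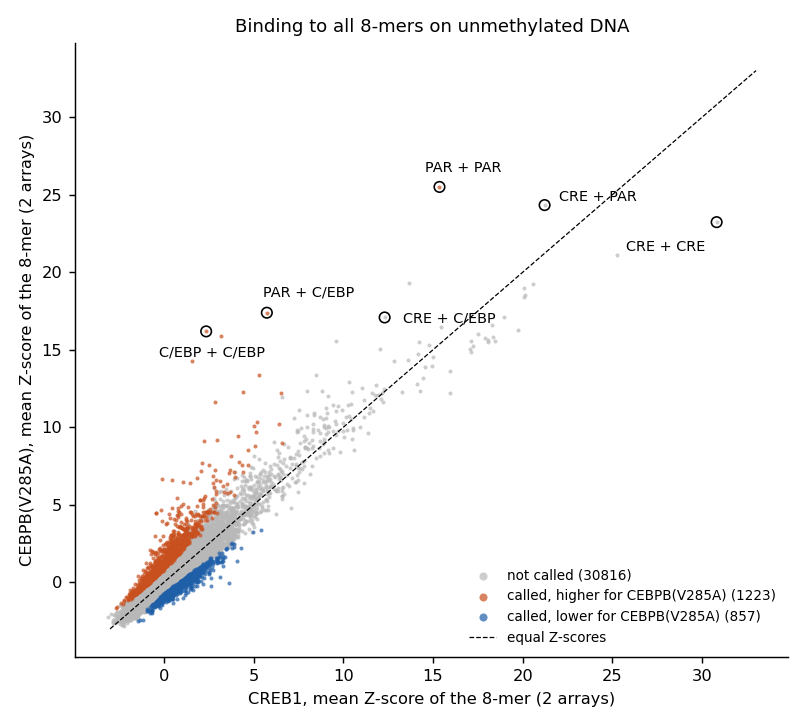
Mean Z-score of each of the 32896 8-mers for CREB1 (x axis) and CEBPB(V285A) (y axis), 2 arrays each; orange and blue points were called higher and lower for CEBPB(V285A), grey points were not called, circles mark the 6 half-site combinations and the dashed line marks equal Z-scores. The 1223 higher calls reach 25.5 on the y axis, while the 857 lower calls reach at most 5.42 on the x axis.

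Of the 10 largest called differences, all but ATGTAATC had outer bases of TGA, TTA or TTG on both sides, and ATGTAATC reads GATTACAT on the other strand, with a PAR half-site. After the C/EBP palindrome came TTACATAA, PAR + PAR with the central CG changed to CA. Its Z-score was 2.81 and 3.5 for CREB1 and 16.1 and 15.7 for CEBPB(V285A), a difference of 12.7 (adjusted p = 0.00596, limma), which was 6.75 after normexp. The site TTATGCAA had 1.44 and 1.72 against 14.1 and 14.5, also a difference of 12.7, with an adjusted p = 5.4e-06 in limma's test, and it was called under every one of the 24 alternatives. The composite site TGATGCAA had 2.50 and 3.25 against 12.1 and 11.2, a difference of 8.77 (adjusted p = 3.26e-05, limma), again called under all 24. After normexp TTATGCAA differed by 8.07. TGACATAA differed by 8.08, or 3.10 after normexp, TGATGTAA by 7.88, or 3.11 after normexp, ATGTAATC by 6.92 and the palindrome TTATATAA by 6.77. TTATATAA, with no C or G at all, stood at 0.301 and -0.520 for CREB1 and at 7.30 and 6.02 for CEBPB(V285A). Without CEBPB(V285A) replicate 1 or 2 the calls of TTACATAA, TGACATAA, TGATGTAA and ATGTAATC were lost. Those of TGACATAA and TGATGTAA were also lost without CREB1 replicate 1 or 2, and that of TGATGTAA without either methylated CEBPB(V285A) array or methylated CREB1(A297V) replicate 1. The adjusted p-values without an array reached up to 0.234 and the differences kept their sign. TGACATAA and TGATGTAA were not called after normexp (adjusted p = 0.0885 and 0.120, limma) or in the authors' matrix (0.0711 and 0.111), nor was TGATGTAA with the linear signal.

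To see how far each half-site fixes binding, every possible run of 4 bases was placed behind it, and the share called is given of all these 8-mers. Behind the CRE half-site TGAC the share of calls turned with the scaling. CREB1 bound 73 of its 8-mers and CEBPB(V285A) 72, with 65 in common. Of these 8-mers, 10 were called higher (3.91%) and 4 lower, near the 3.72% higher of all 8-mers, where 2.61% were lower. With centred log2 scores 59 were higher (23.0%, against 8.70% of all 8-mers) and 3 lower, and after normexp 2 were higher and 33 lower (12.9%, against 4.42% of all 8-mers). Behind TGAC, the highest continuations after CRE and PAR for CREB1 were those of TGACGTAT and TGACGTGG. TGACGTAT had 17.3 and 18.8 for CREB1 and 17.6 and 13.6 for CEBPB(V285A), and TGACGTGG 16.3 and 19.5 against 16.9 and 14.6. Neither was called. Their folds over the array median were higher for CEBPB(V285A), at 7.13 for CREB1 against 9.04 at TGACGTAT and 6.97 against 9.23 at TGACGTGG. The call with the largest difference there was TGACATAA, and those lower for CEBPB(V285A) were small: TGACGATA had 4.15 and 5.83 for CREB1 against 3.45 and 3.01, a difference of -1.76 (adjusted p = 0.0480, limma) that was lost without CREB1 replicate 2, either CEBPB(V285A) array or any of the 4 methylated arrays.

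Behind the PAR half-site TTAC the sets parted. CREB1 bound 29 and CEBPB(V285A) 52, with 28 in common, and 33 were called higher (12.9%) against 1 lower. TTACACAA is an example, at 1.37 and 1.59 for CREB1 and 6.11 and 6.70 for CEBPB(V285A), a difference of 4.92 (adjusted p = 0.00871, limma). Leaving out either CEBPB(V285A) array, or replicate 1 of CREB1, ended this call. Of the 29 sites that CREB1 did bind behind TTAC, 15 continued with GT. TTACGTAG had 10.6 and 15 for CREB1 and 15.7 and 12.8 for CEBPB(V285A), with no call.

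The C/EBP half-site TTGC gave the highest share of calls of the 3. CREB1 bound 8, all of them among the 22 that CEBPB(V285A) bound. Calls were higher for 57 (22.3%) and lower for 6, against 3.72% and 2.61% of all 8-mers. Of the 8 that CREB1 bound, 6 continued with GT, and the strongest were TTGCGTCA and TTGCGTAA, the mixed sites above written from the other strand. TTGCACAA, with a CA centre, stood at -0.465 and -0.449 for CREB1 and at 4.62 and 4.30 for CEBPB(V285A), a difference of 4.92 (adjusted p = 1.92e-06, limma). TTGCGTAG was bound by both, at 2.86 and 4.51 for CREB1 and 5.43 and 6.25 for CEBPB(V285A), and was called higher by 2.16 (adjusted p = 0.0327, limma). The counts of higher calls dropped without CEBPB(V285A) replicate 1 or 2, to 1 and 1 for CRE, 3 and 4 for PAR and 21 and 24 for C/EBP, and without CREB1 replicate 1 to 3, 15 and 36. Without CREB1 replicate 2 they were 16, 21 and 44. For PAR and C/EBP, normexp left 15 and 38 higher calls (5.86% and 14.8%, against 2.07% of all 8-mers) and centred log2 scores gave 89 and 79.

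**Figure D3:**
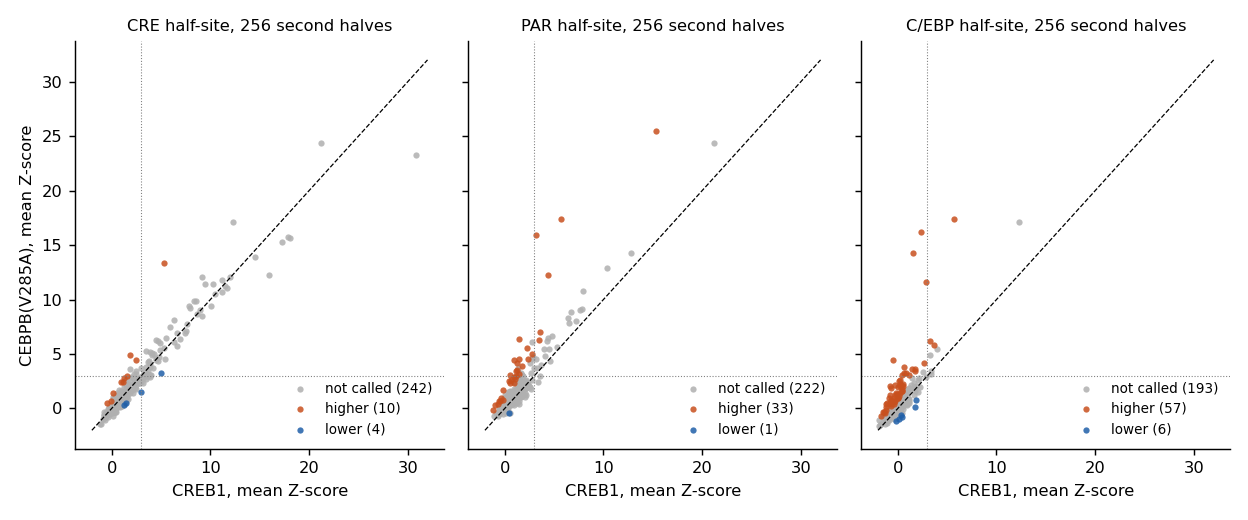
Mean Z-score for CREB1 (x axis) and CEBPB(V285A) (y axis) of all 8-mers that start with the CRE, PAR or C/EBP half-site, 1 panel each; orange points were called higher and blue points lower for CEBPB(V285A), dotted lines mark a Z-score of 3 and the dashed line equal Z-scores. The CRE panel has 10 higher calls on this scale, a count that changes with the scaling, and the higher calls number 33 in the PAR panel and 57 in the C/EBP panel.

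Averaged over all 8-mers that start with a given 4-base word on either strand, the ranking of words was much the same for both proteins. ACGT, the centre of CRE + CRE and PAR + PAR, ranked 1 of all 4-base words for both, TGAC ranked 2 and TACG ranked 3. TTAC ranked 10 for CREB1 and 5 for CEBPB(V285A), with mean Z-scores of 1.40 and 1.57 on the CREB1 arrays and 2.29 and 2.20 on the CEBPB(V285A) arrays. TTGC ranked 102 for CREB1 and 36 for CEBPB(V285A), with means of 0.154 and 0.267 against 0.962 and 0.884. The largest mean differences of these words were 0.760 for TTAC and 0.713 for TTGC, while TGAC had 0.103.

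Single-base variants show how each base went with binding. Positions are counted from 1 at the 5′ end of the site as written, with the original base first. In CRE + CRE, G2T makes a CRE + PAR site, and no variant was called lower for CEBPB(V285A). Of its 12 distinct variants, 10 were bound by CREB1 and 9 by CEBPB(V285A). C4T, which breaks the central CG to TG, left 7.62 and 10.7 for CREB1 and 13.3 and 10.7 for CEBPB(V285A). A3C left 2.52 and 3.9 for CREB1 and 2.85 and 1.78 for CEBPB(V285A), and C4G left 0.799 and 1.85 against 2.67 and 2.35. Only C4A was called, at 0.722 and 1.62 for CREB1 and 2.79 and 2.05 for CEBPB(V285A) (adjusted p = 0.0413, limma). That call was lost without CREB1 replicate 1, either CEBPB(V285A) array or any of the 4 methylated arrays.

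In PAR + PAR, 2 of 12 variants were called, C4T and A3G, both higher for CEBPB(V285A). C4T, which gives the TTACATAA site, left 2.81 and 3.5 for CREB1 but 16.1 and 15.7 for CEBPB(V285A). A3G, which makes 1 half-site a C/EBP half-site, left 5.05 and 6.42 for CREB1 and 18.6 and 16.2 for CEBPB(V285A). The lowest values for both proteins were at A3C and C4A: A3C left 1.83 and 1.52 for CREB1 and 3.22 and 3.23 for CEBPB(V285A), and C4A left 1.53 and 1.15 against 3.88 and 3.6, with no call for either. A3T left 4.41 and 5.25 against 6.98 and 6.35, and C4G left 2.60 and 2.95 against 6.33 and 5.81, also with no call. T1C, at the outermost base, kept 10.6 and 15 for CREB1 and 15.7 and 12.8 for CEBPB(V285A).

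In C/EBP + C/EBP, 11 of 12 variants were called higher for CEBPB(V285A), and only G3A, which makes 1 half-site a PAR half-site, was bound by CREB1. For CEBPB(V285A), G3A kept 18.6 and 16.2, C4T kept 4.62 and 4.30, ATGCGCAA (T1A) kept 3.98 and 3.28, TGGCGCAA (T2G) kept 3.66 and 3.86, and the median of the 12 was 2.13. TGGCGCAA stood at 1.03 and 0.188 for CREB1, a difference of 3.16 (adjusted p = 0.000116, limma) that was called under all 24 alternatives. Over the 6 sites, the variants called higher numbered 1 of 12 for CRE + CRE, 7 of 24 for CRE + PAR, 10 of 24 for CRE + C/EBP, 2 of 12 for PAR + PAR, 15 of 24 for PAR + C/EBP and 11 of 12 for C/EBP + C/EBP, against 3.72% of all 8-mers, and none was called lower in any of them. At an unadjusted p below 0.05, 1 variant of CRE + PAR was lower and none of the other sites. Variants of different sites overlap, so these counts are not independent. With centred log2 scores the higher variants in the same order numbered 8, 15, 18, 11, 23 and 12, against 8.70% of all 8-mers, and none was lower. The contrast between the sites thus changed with the scaling. After normexp the counts of higher variants were 0, 0, 5, 1, 8 and 10, with 2, 5 and 2 variants of CRE + CRE, CRE + PAR and CRE + C/EBP called lower. They dropped to 0, 0, 5, 0, 5 and 5 without CEBPB(V285A) replicate 1 and to 0, 0, 7, 1, 7 and 9 without CREB1 replicate 1.

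The central pair of bases was examined in a further grid, chosen after the values above were seen, with the 3 outer bases of each half-site kept (TGA for CRE, TTA for PAR and TTG for C/EBP) and the centre varied. The outer PAR and PAR bases gave 7 higher calls of 10 distinct centres, PAR and C/EBP 10 of 16, C/EBP and C/EBP 6 of 10, CRE and PAR 7 of 16, CRE and C/EBP 6 of 16 and CRE and CRE 1 of 10, with no lower call in any, against 3.72% higher and 2.61% lower of all 8-mers. Centred log2 scores called 10, 12, 8, 11, 8 and 4 higher in the same order and none lower, against 8.70% higher of all 8-mers. After normexp the higher calls in the same order were 5, 9, 6, 4, 5 and 0, with 1 lower between CRE outer bases. At an unadjusted p below 0.05, 1 centre between CRE outer bases was lower. CREB1 bound 2, 1, 0, 3, 1 and 2 of these sites in the same order, and CEBPB(V285A) bound 6, 7, 2, 7, 3 and 3. Between PAR outer bases CREB1 bound the CG and the CA centre, and CEBPB(V285A) bound TA (7.30 and 6.02), CC (6.33 and 5.81), GA (3.79 and 3.75) and AG (3.88 and 3.6) as well. GA differed by 3.65 (adjusted p = 9.22e-06, limma) and CC, at 2.60 and 2.95 for CREB1, was not called. Between CRE outer bases on both sides, the CA centre, TGACATCA, had 7.62 and 10.7 for CREB1 and 13.3 and 10.7 for CEBPB(V285A), and the GC centre, TGAGCTCA, lay between -1.91 and -1.56 on all 4 arrays. Without CEBPB(V285A) replicate 1 the higher calls in the same order were 2, 7, 3, 1, 3 and 0.

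Motif lists are described by counts, with no test of a list. A list holds all 8-mers that contain its core, read on both strands, and its counts stand beside the 3.72% higher and 2.61% lower of all 8-mers. Among the 48 8-mers with a CRE half-site followed by GT, all were bound by both proteins, none was called in either direction (1 lower at an unadjusted p below 0.05 in limma's test), and the median Z-score was 13.0 and 15.3 for CREB1 and 12.7 and 12.3 for CEBPB(V285A). The median difference of this list was -0.84, but it was 0.43 log2 units for scores centred and not divided by the spread, where 15 members were called higher and none lower, positive too with the linear signal, foreground over background and the authors' matrix, and -4.45 after normexp, where 38 members were called lower. Its median fold over the array median was 4.69 for CREB1 and 5.87 for CEBPB(V285A).

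The 48 8-mers with a PAR half-site followed by GT had a median Z-score of 6.07 and 7.48 for CREB1 and 9.16 and 8.25 for CEBPB(V285A). The median difference was 1.80, 3 members were called higher (6.25%) and none lower (1 at an unadjusted p below 0.05, limma), and 41 of the 48 differences were positive. After normexp the median turned to -1.14 with 4 members lower, and with centred log2 scores 39 were higher. The 48 8-mers with a C/EBP half-site followed by GC had a median of 0.209 and 0.519 for CREB1 and 1.28 and 1.26 for CEBPB(V285A). CREB1 bound none and CEBPB(V285A) bound 10. Of this list 22 were called higher (45.8%) and none lower, also at an unadjusted p below 0.05 in limma's test, the median difference was 0.83 and it was positive under each of the 9 scalings.

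Chimeric cores join a CRE or PAR half-site to the start of a C/EBP one. The 48 8-mers with TGAC followed by GC were bound by both proteins in most cases, 44 for CREB1 and 45 for CEBPB(V285A), with 1 called higher and a median difference of 0.61, which turned to -1.78 after normexp and -0.13 after quantile normalization. Centred log2 scores called 35 of them higher, the authors' matrix called 8 higher and normexp called 11 lower. The called member was AGCGTCAA, at 2.31 and 2.99 for CREB1 and 5.49 and 3.53 for CEBPB(V285A), a call lost without CREB1 replicate 1 or CEBPB(V285A) replicate 1. Of the 48 with TTAC followed by GC, 16 were bound by CREB1 and 23 by CEBPB(V285A), 11 were called higher (22.9%) and the median difference of 0.96 was positive under each scaling, with 31 higher for centred log2 scores and 2 after normexp. Without CEBPB(V285A) replicate 1 the higher calls of the lists with PAR and GT, C/EBP and GC, and PAR and GC were 0, 8 and 0, and without CREB1 replicate 1 they were 1, 14 and 2.

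The same half-sites were also listed without a G behind them. TGAC followed by A, C or T gave 31 higher (4.04%) and 9 lower of 768, TTAC gave 80 higher (10.4%) and 5 lower of 768, and TTGC gave 118 higher (15.8%) and 10 lower of 746. Without CEBPB(V285A) replicate 1 the higher calls were 1, 11 and 37, and without replicate 2 they were 6, 13 and 47. With TGAC the balance of directions turned with the scaling, with 12 higher and 37 lower after normexp and 163 higher and 10 lower for centred log2 scores. With TTAC and TTGC higher calls outnumbered lower ones under both, at 48 against 9 and 90 against 12 after normexp and at 196 against 8 and 174 against 18 for centred log2 scores. CREB1 bound 89, 12 and 3 of these, and CEBPB(V285A) 108, 92 and 24. The composite core GATGCA gave 9 higher and 1 lower of 48. Its lower member was the palindrome GATGCATC, at 3.36 and 3.24 for CREB1 and a mean of 1.37 over the CEBPB(V285A) arrays, a difference of -1.93 (adjusted p = 0.00731, limma) that was lost without either CEBPB(V285A) array.

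**Figure D4:**
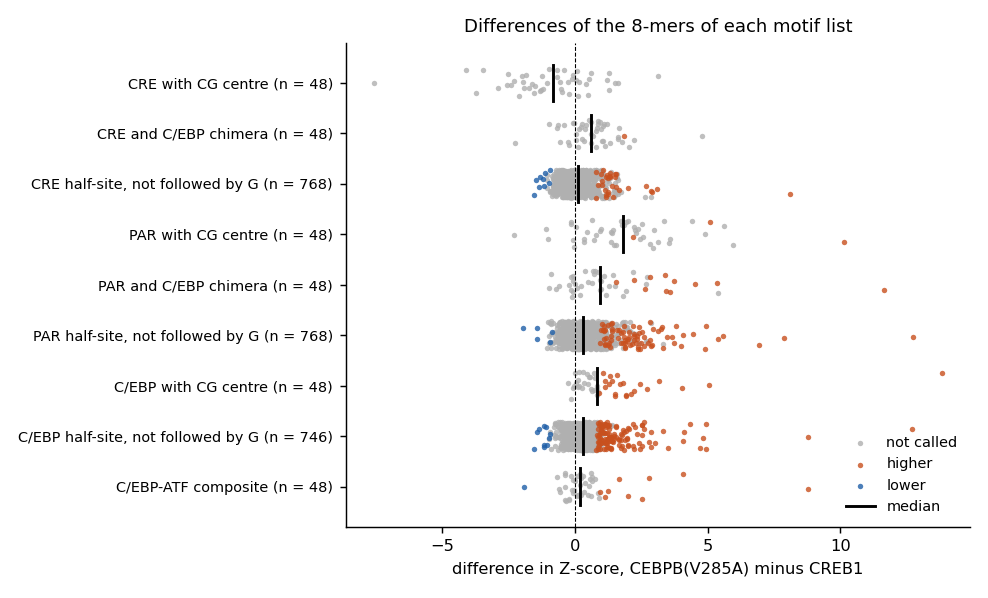
Difference in Z-score, CEBPB(V285A) minus CREB1, on the x axis for each 8-mer of the motif lists named on the y axis, with the number of members; orange points were called higher, blue points lower, grey points were not called, the black bar is the list's median and the vertical scatter within a list has no meaning. The median is -0.84 for CRE with GT behind it, a sign that turns with other scalings, 1.80 for PAR with GT and 0.83 for C/EBP with GC, where 22 of 48 were called higher.

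Cores known for other factors were listed too. Of the 8 8-mers with the AP-1 core TGACTCA, the site of FOS and JUN dimers, none was called (1 higher at an unadjusted p below 0.05, limma), and ATGACTCA stood at 3.43 and 4.54 for CREB1 and 5.11 and 4.13 for CEBPB(V285A). This core starts with the CRE half-site, and all 8 are also in the list with TGAC followed by A, C or T. The 26 with the E-box CACGTG, known for bHLH factors such as MYC, were bound by CREB1 in 17 cases and by CEBPB(V285A) in 13, with 1 called lower, or 7 after normexp. Centred log2 scores called 6 higher (23.1%, against 8.70% of all 8-mers) and none lower, so the direction turned with the scaling. The highest of the 26, CACGTGAC, ends with the CRE half-site TGAC and reached 7.58 and 8.13 for CREB1 and 9.58 and 7.94 for CEBPB(V285A). No 8-mer with the GC-box GGGCGG or the ETS core CCGGAA was bound by either protein, with 3 higher and 1 lower of 48 for the first and no call of 48 for the second, where 1 was higher and 6 lower at an unadjusted p below 0.05 in limma's test. Of the 136 8-mers of A and T alone, 24 were higher (17.6%) and 2 lower, and without CEBPB(V285A) replicate 1 or 2 the higher calls were 8 and 9. After normexp 13 were higher (9.56%) and 8 lower (5.88%), against 2.07% and 4.42% of all 8-mers. The median difference of this list turned from 0.21 to -0.063 there. Centred log2 scores called 42 higher and 2 lower.

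By CG content, higher calls made up 4.23% of the 20349 8-mers with no CG, 3.18% of the 10762 with 1, 1.23% of the 1702 with 2 and none of the 83 with 3 or more, where 4 were higher at an unadjusted p below 0.05 in limma's test. Lower calls made up 2.51%, 2.80%, 2.53% and 2.41% in the same order. The order of the higher shares changed with the scaling. Centred log2 scores called 1747, 966, 141 and 7 higher, and the authors' matrix 280, 165, 19 and 1. Under both, the share was highest with 1 CG. Of all palindromes of 8 bases, 15 were called higher (5.86%) and 12 lower (4.69%), against 3.72% and 2.61% of all 8-mers. After normexp 9 were higher (3.52%) and 26 lower (10.2%), against 2.07% and 4.42% of all 8-mers. CREB1 bound 24 palindromes, CEBPB(V285A) 23 and both 17. Besides PAR + PAR, C/EBP + C/EBP and TTATATAA, the higher palindromes with the largest differences were TTAGCTAA, at -0.0609 and -0.329 for CREB1 and 2.88 and 2.62 for CEBPB(V285A), and TCTGCAGA, at -0.973 and -1.03 against 1.29 and 1.27. Of the 12 lower palindromes, 3 were bound by CREB1. CGGCGCCG was not, at 0.746 and 0.690 for CREB1 and -0.561 and -1.63 for CEBPB(V285A), a difference of -1.81. TGTATACA, at 3.31 and 2.85 for CREB1 and 1.31 and 1.33 for CEBPB(V285A), differed by -1.76, and GTACGTAC, at 2.86 and 3.04 against 1.62 and 1.25, by -1.52. The calls of TTAGCTAA, TGTATACA and GTACGTAC were lost without either CEBPB(V285A) array, that of GTACGTAC also without CREB1 replicate 2, and that of TTAGCTAA also without either CREB1 or methylated CEBPB(V285A) array. Without CEBPB(V285A) replicate 1 or 2 the palindromes gave 6 and 9 higher calls and 1 lower call each.

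Few of the 857 8-mers called lower for CEBPB(V285A) were in the half-site lists. They were 9 with TGAC (1.17%), 5 with TTAC (0.651%) and 10 with TTGC (1.34%), each followed by A, C or T, against 2.61% of all 8-mers. On this scale none was in the lists where GT or GC followed. After normexp, 38 with TGAC and GT (79.2%), 4 with TTAC and GT (8.33%) and 11 with TGAC and GC (22.9%) were lower. The lower share of all 8-mers was 4.42% there. Among the 857, the largest difference was at AAAGAAAG, with a Z-score of 4.01 and 3.27 for CREB1 and 0.146 and -0.220 for CEBPB(V285A), a difference of -3.68 (adjusted p = 6.32e-06, limma) and a fold of 1.49 against 0.995. AAAAAAAA had 2.42 and 2.89 against -0.0658 and -0.408, a difference of -2.89 (adjusted p = 2.71e-05, limma) that was 0.0801 in the authors' matrix. AACGGGGC had 3.96 and 2.32 against 0.277 and 0.404, a difference of -2.80. Of the 10 largest lower differences, 5 were at 8-mers made of purines alone on 1 strand. Over all such 8-mers, a set chosen after these values were seen, 53 were called lower (20.7%), 2 higher (0.781%) and 201 were not called, against 2.61% lower and 3.72% higher of all 8-mers. Foreground over background left 17 lower calls and the authors' matrix 18, and the count of lower calls was 13 and 15 without CEBPB(V285A) replicate 1 or 2 and 26 without CREB1 replicate 1. Their median Z-score was -0.354 and -0.485 on the CREB1 arrays and -0.701 and -0.742 on the CEBPB(V285A) arrays. On the unmethylated CREB1(A297V) arrays, which share the array identifier of CREB1, it was -0.0667 and -0.0935. On the methylated CEBPB(V285A) arrays it was -0.665 and -0.728, and on the methylated CREB1(A297V) arrays -0.620 and -0.452. The part of the array identifier or of background signal in the lower calls was not tested.

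Single probes were then compared. With 2 arrays against 2, an exact permutation test cannot go below p = 0.33, so probe values are described only. Of the 19 probes with CRE + CRE, all stood at 3-fold or more over the surrounding spots on every array, with medians of 30.6 and 26.3 for CREB1 and 27.7 and 24.5 for CEBPB(V285A). Of the 17 with C/EBP + C/EBP, 1 and 2 reached 3-fold on the CREB1 arrays, against 15 on both CEBPB(V285A) arrays, and the medians were 1.28 and 1.29 against 9.16 and 10.2. The 18 PAR + PAR probes had medians of 5.68 and 4.95 for CREB1, with 11 and 12 at 3-fold or more, and of 38.4 and 34.1 for CEBPB(V285A), with 17 on both arrays. The 35 PAR + C/EBP probes had medians of 1.81 and 1.89 against 14.2 and 9.31, and on no CREB1 array did more than 10 reach 3-fold. Another fold took the background-subtracted signal over its median across the whole array, with no window of surrounding spots. Its value at CRE + CRE was 41.9 and 38.1 for CREB1 and 40.8 and 35.3 for CEBPB(V285A). At C/EBP + C/EBP it was 1.29 and 1.42 against 15 and 14.5.

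The base before each half-site, read 5′ to 3′, went with the signal of both proteins. At CRE + CRE, probes with G before a half-site had a median fold of 40.5 and 34.5 for CREB1 and 34.2 and 30.5 for CEBPB(V285A), and probes with T there had 14.6 and 13.1 against 13.0 and 15.6. At PAR + PAR the medians for CEBPB(V285A) were 63.4 and 54.3 with G and 62.3 and 52.1 with A, but 15.5 and 9.85 with T. CREB1 had 6.31 and 6.45 with G, 9.33 and 7.72 with A and 3.27 and 3.22 with T at the same probes. At C/EBP + C/EBP, CEBPB(V285A) had 25.4 and 23.7 with A against 6.06 and 3.85 with T, while CREB1 stayed between 1.14 and 1.49 with any base. Each of these medians rests on 7 to 9 probes, which also differ in where the site lies.

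Position on the probe was recorded as the first base of the site, counted from 1 at the free 5′ end. At CRE + PAR, the 9 probes with a start at 1 to 7 had medians of 19.5 and 20.2 for CREB1 and 40.8 and 35.5 for CEBPB(V285A), and the 9 with a start at 22 to 28, next to the linker, had 7.37 and 7.01 against 15.9 and 11.1. At PAR + PAR the 6 probes with a start at 8 to 14 had 11 and 10.5 for CREB1 and 72.6 and 65.9 for CEBPB(V285A). CEBPB(V285A) was above CREB1 in every position class of all combinations other than CRE + CRE. At CRE + CRE, CEBPB(V285A) was lower with a start at 1 to 7, at 27.7 and 21.0 against 40.5 and 34.5 over 3 probes. With a start at 22 to 28 CEBPB(V285A) was higher there, at 24.5 and 14.8 against 14.5 and 12.7 over 6 probes. In the classes between, the arrays of the proteins overlapped. Between strands, CRE + C/EBP probes had 2.99 and 3.94 for CREB1 on 1 strand and 3.18 and 4.39 on the other, and 14.1 and 13.0 against 11.3 and 10.2 for CEBPB(V285A). The PAR + C/EBP probes differed more, with 10.2 and 9.31 for CEBPB(V285A) with the site as written and 18.0 and 12.3 with its reverse complement, and 1.73 and 1.87 against 2.43 and 2.22 for CREB1.

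Direct abutment of the half-sites gave the highest medians for both proteins. With 1 base between CRE half-sites, the median fold was 1.32 and 1.29 for CREB1 and 1.54 and 1.43 for CEBPB(V285A), over 17 probes with none of the 6 abutting sites. With 1 central base shared, as in AP-1 sites, the CRE + CRE medians were 1.11 and 1.16 against 1.26 and 1.22, over 145 probes. PAR + PAR with 1 base between gave 1.21 and 1.16 for CREB1 and 1.56 and 1.59 for CEBPB(V285A), and C/EBP + C/EBP gave 1.00 and 0.97 against 1.21 and 1.23. No spacing other than direct abutment reached a median of 3-fold in either protein, and the highest was 2.64 for CEBPB(V285A) replicate 1 at CRE + CRE with 3 bases between, where replicate 2 had 1.85.

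**Figure D5:**
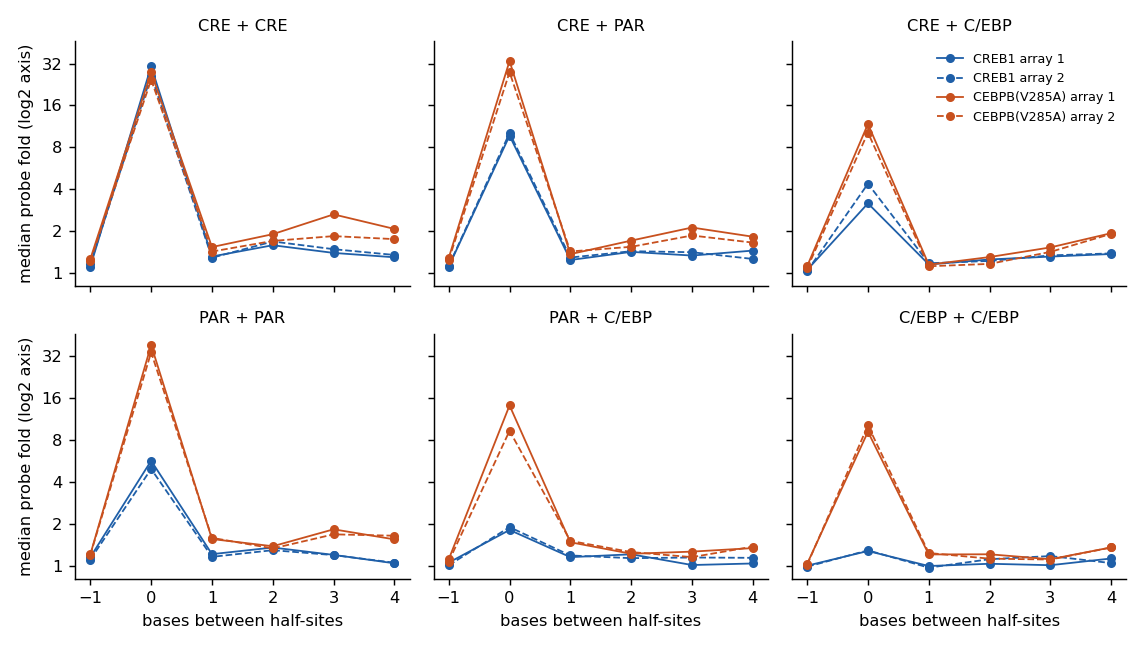
Median fold of probe signal over the surrounding spots (y axis, log2 scale) against the number of bases between head-to-head half-sites (x axis; -1 means that 1 central base is shared and 0 that they abut), 1 panel per combination and 1 line per array, with CREB1 in blue and CEBPB(V285A) in orange. All 4 arrays peak at 0 in every panel, at 30.6 and 26.3 for CREB1 and 27.7 and 24.5 for CEBPB(V285A) at CRE + CRE, and at 1.28 and 1.29 against 9.16 and 10.2 at C/EBP + C/EBP.

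The brightest probes were shared in part. Of the 400 probes with the highest mean log2 fold for each protein, 144 were outside the other protein's set and the rest were in both. Of the shared probes, 194 held TGACGT or TTACGT, a core found on 1107 of all 40330 probes. The 144 that only CREB1 had among its 400 held this core in 71 cases, and the 144 that only CEBPB(V285A) had held it in 27. In turn, a core of TTGCGC or TTGCAT or TTACAT, found on 1702 of all probes, was held by 56 of the probes in the CEBPB(V285A) set alone, by 3 of those in the CREB1 set alone and by 9 of the shared ones. The chimeric cores TGACGC or TTACGC, found on 1183 of all probes, went the other way. They were held by 30 probes in the CEBPB(V285A) set alone, by 43 in the CREB1 set alone and by 45 shared ones. These are counts of probes chosen by their own signal and carry no test.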

How the data were processed

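The 10 arrays of the series are protein binding microarrays of 40330 probes. Per the file headers, the deposited probe tables give the median pixel intensity of each spot and of its local background, with no subtraction. The authors also deposited a matrix of Z-scores, 1 score per 8-mer and array, whose steps are not given in the sources used here; a recomputation from linear signal correlated with it at 0.888 to 0.993. Each log2 intensity was reduced by the median of a window of 15 by 15 spots, and the median over all probes with an 8-mer (at least 8) was turned into a Z-score by the median and the scaled median absolute deviation. All 10 arrays were fitted with limma 3.58.1 in R 4.3.3, 1 mean per group, with a variance trend limited at the 99.9th percentile of mean score and Benjamini-Hochberg adjustment over 32896 8-mers. The fit was tested on simulated data. No array was left out. Named 8-mers are the half-site combinations, the 5 highest per protein, the 10 largest called differences in each direction, and the extremes of each list, grid, palindrome set and variant set; others are examples chosen after their values were seen. The comparison, the lists and the rules were chosen with earlier results of these data known. Alternatives covered other scalings and backgrounds, other trends, other sets of arrays, a minimum of 20 probes, a replicate block and each array left out. Python 3.11.15, numpy 2.4.6, pandas 2.3.3 and matplotlib 3.10.9 were used.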

Additional observations from a re-analysis of the deposited data

How the results depend on the processing

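The number of called 8-mers changed both with the arrays in the fit and with the scaling. With each array left out in turn it lay between 236 and 3608, with 169 to 1993 higher and 67 to 1617 lower. With only the 6 unmethylated arrays 749 were called, 543 higher and 206 lower. Log2 scores centred but not divided by the spread gave 4407, 2861 higher and 1546 lower. Foreground over background gave 714, 514 higher and 200 lower. With no spatial correction 642 were called, 509 higher and 133 lower, and the authors' matrix gave 602, 465 higher and 137 lower. After normexp 680 were higher and 1454 lower. With normexp the difference turned to -3.75 at TGACGTAA and to -1.03 at TGACGCAA. The authors' matrix turned AAAAAAAA to 0.0801 and TGACAAGA to 0.228, and foreground over background turned TGACAAGA to 0.168. The cause was not tested for any of these. Of the 2080 calls, 78 had the opposite sign with foreground over background, 30 in the authors' matrix, 21 with no spatial correction and 10 after normexp. The replicate block gave 2343 calls and shared 2079 with the fit without it, but with 2 pairs of arrays the numbers do not establish a pairing. Spots that were not above background, 1037 and 1497 for CREB1, limit what is known of weak binding there. Spots at the top of the scanner's range limit the strongest sites.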
